A study of Homo sapiens with 12 samples.

Results

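The change in gene expression between 8 h and 24 h of AU-15330 treatment was examined in Z138, an established human mantle cell lymphoma line. The samples were chosen by treatment and time alone, and they are the 6 treated libraries of 12 samples in all, 3 at each time. The degrader, a bifunctional molecule (PROTAC) that brings its targets to a ubiquitin ligase, removes SMARCA4, SMARCA2 and PBRM1. SMARCA4 and SMARCA2 are alternative motors of the BAF complexes, and PBRM1 belongs to the PBAF form. All cells are labelled as wild type and were exposed to 0.5 µM of the degrader for 8 h or 24 h, or to the DMSO vehicle for the same times. Each time is also its own labelled batch, so time and batch cannot be told apart, in treated and in vehicle cells alike. The 5 usable vehicle libraries, 2 at 8 h and 3 at 24 h, carry the same batch labels as the treated ones. They give the change that time and batch brought without the degrader. The labels do not say that replicates were separate cultures, so the spread behind each p-value is that between these samples and may be technical.

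BAF complexes use ATP to slide and evict nucleosomes, and they hold enhancers open for transcription factors such as those of the B cell lineage. In lymphoma cells these enhancers also serve oncogenes such as MYC, which drives ribosome production and growth. Immediate early genes, which rise within minutes of signalling and encode short-lived transcription factors, are also sensitive to handling and medium.

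Values are normalised counts, that is reads per gene divided by a size factor of the library, recovered from the deposited log2 values. Fold changes are on the scale of log2(normalised count + 60), as 24 h minus 8 h with the standard error (SE) of limma's fit, and they understate changes of low genes. Adjusted p-values are limma's, with Benjamini-Hochberg adjustment over 12721 tested genes. In bulk RNA, fewer cells of a type and less RNA per cell cannot be told apart.

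The treated libraries held an estimated 50745720 to 60365359 counts each. Deposited values correlated within a time at r = 0.9965 to 0.9976 and between times at r = 0.9878 to 0.9896. The summed B cell markers (10 of 10 genes present) lay between 185108 and 207223 normalised counts at 8 h and between 137395 and 152788 at 24 h. The summed T and NK cell markers lay between 662 and 853 in the treated libraries. CD3G, CD28 and LCK carried most of that sum, while TRBC1 was at 0 in the means of both treated groups. In treated libraries summed myeloid markers reached at most 274, led by CD68, summed erythroid and megakaryocyte markers at most 38.4, and summed stromal markers lay between 204 and 533, led by COL1A1 and PECAM1. The part of other cell types in the results was not tested.

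Between 8 h and 24 h of treatment, 2324 genes rose and 2685 fell, together 39.4% of the genes tested. The median change over all tested genes was -0.01, and the called genes had a median size of 0.33 on the log2 scale. A change of at least 2-fold was seen for 226 of them, 88 of which fell, and the rises and falls of this size were 1.08% and 0.692% of the genes tested. Over the same interval 1287 genes (10.1%) passed in vehicle cells, of which 834 rose and 453 fell. By direction, 18.3% of all genes rose and 21.1% fell with treatment, and 6.56% rose and 3.56% fell in vehicle. Of the treated calls, 417 genes rose and 259 fell in both series, which is 8.33% and 5.17% of the treated calls and 32.4% and 20.12% of the vehicle calls. Opposite calls were made for 102 genes that fell with treatment and rose in vehicle, and for 35 that did the reverse. Vehicle at 8 h has 2 libraries. With 1 of the 8 h treated libraries left out, so that 2 were set against 3 as in vehicle, 4312 to 4522 genes still passed in treated cells.

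The difference between the time changes was tested itself, and 2358 genes (18.5%) passed, 959 with a more positive change in treated cells and 1399 with a more negative one. Among the 226 genes with treated changes of at least 2-fold, 176 also differed from the vehicle change in the same direction, 104 of those that rose and 72 of those that fell. The split of calls moved with the scaling. On log2(CPM + 1), 53.88% of the treated calls were rises, against 46.4% on the deposited scale. For the vehicle change the share of rises was 64.8% as deposited and 50.2% on that scale, and for the difference it was 40.67% and 58.89%.

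**Figure D1:**
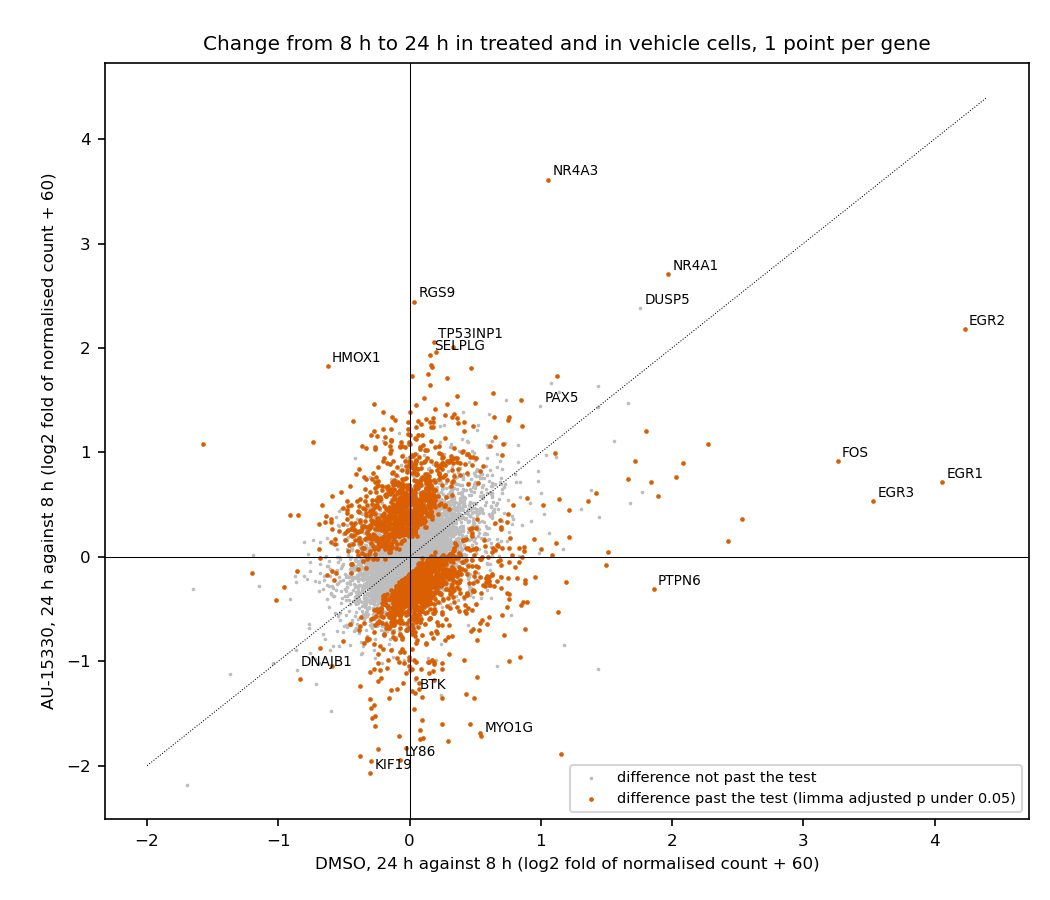
Each point is 1 of the tested genes, with the vehicle change from 8 h to 24 h on the horizontal axis and the change in AU-15330 on the vertical axis, both as log2 folds of normalised count + 60. Orange points passed the test of the difference, and the dotted line marks equal changes. NR4A3 lies highest at 3.61, EGR1 and FOS lie far to the right of the dotted line, and KIF19 is lowest of the named genes at -2.07.

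The largest rise was that of NR4A3, an orphan nuclear receptor of the immediate early class (ENSG00000119508.18, GRCh38 chr9:99821855-99866891, plus strand). Its normalised counts were 15.1, 19.9 and 24.0 at 8 h and 1102, 972 and 709 at 24 h, so the groups were far apart. The change was 3.61 ± 0.17 (adjusted p = 2.7e-07), against 1.06 ± 0.19 in vehicle. The difference of 2.56 ± 0.26 also passed its test (adjusted p = 0.00014). NR4A1, the best known member of the family and a reporter of antigen receptor signalling, had 388, 532 and 566 counts at 8 h and 4243, 3689 and 2792 at 24 h. It rose by 2.71 ± 0.17, and by 1.97 ± 0.19 in vehicle. NR4A2, the remaining family member, went from between 27.9 and 49.2 counts to between 284 and 344, a rise of 2.01 ± 0.12, while its vehicle change of 0.33 ± 0.14 did not pass the test. All members of the family were thus higher at 24 h in every treated library. The difference from vehicle passed for NR4A3 and NR4A2 under each alternative that tested them. For NR4A1 it was 0.73 and was lost under several, with adjusted p of 0.125 with the replicate block, 0.0595 on log2(CPM + 1) and 0.128 without DMSO replicate 1 at 8 h.

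EGR1, EGR3 and FOS, also immediate early genes, rose far more in vehicle. EGR1, a zinc finger factor induced by MAP kinase signalling, had 1779, 1854 and 1230 counts at 8 h of treatment and 3287, 2963 and 1916 at 24 h. Its treated change of 0.71 ± 0.26 did not pass (adjusted p = 0.061), but it did in several alternatives, such as without AU-15330 replicate 3 at 24 h (adjusted p = 0.0202) and on log2(CPM + 1) (adjusted p = 0.0416). In vehicle it went from 359 and 216 counts to 4129, 7616 and 5618, a rise of 4.06 ± 0.29, and the difference between the changes was -3.35 ± 0.39 (adjusted p = 0.0011). EGR2 rose in both series, by 2.18 ± 0.16 with treatment and by 4.23 ± 0.18 in vehicle. The difference for EGR2 was lost without DMSO replicate 1 or 2 at 8 h (adjusted p = 0.0693 and 0.0535). The treated 24 h libraries held 3412, 3072 and 2125 counts and the vehicle ones 2866, 3094 and 2254, so they overlapped at 24 h, whereas at 8 h EGR2 stood at 550 to 590 with treatment and at 77.6 and 99.1 in vehicle. FOS, a subunit of the AP-1 factor, had 107, 150 and 128 counts and then 359, 334 and 209, a rise of 0.92 ± 0.21 beside one of 3.26 ± 0.23 in vehicle. The treated rise of FOS (adjusted p = 0.017) was lost without AU-15330 replicate 1 at 8 h (0.0557) and without replicate 1 or 2 at 24 h (0.0624 and 0.057). EGR3 had 17.4, 82.5 and 27.2 counts at 8 h and 118, 89.4 and 50.4 at 24 h, groups that overlap, while vehicle rose by 3.53 ± 0.27. The treated 8 h libraries therefore already held more EGR1, EGR2 and FOS than vehicle, and the 24 h step was smaller. Of the 27 tested genes of this class, 17 rose and 3 fell with treatment (18.3% and 21.1% of all genes rose and fell), with a median of 0.54. In vehicle 13 rose and none fell (6.56% and 3.56% of all genes). The difference was positive for 9 and negative for 10 (7.54% and 11.0% of all genes).

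Promoter stretches are shown for the immediate early, heat shock, ribosome biogenesis and lysosomal classes. The motifs in them are known contact points of the factors that serve each class. The stretches are RefSeq sequences (GRCh38.p14) upstream of the start, 5′ to 3′ on the gene's strand, with a match of the motif in capitals. For each class they were taken by size of change, under rules that included a single entry per symbol and a motif in the upstream part. Except for the CArG box, only members past the test were used. All but EGR1 and HSPA8 were thus chosen after their values were seen. EGR1 (chr5:138465344-138465413, plus strand) shows a CArG box, the site of serum response factor. A further match to the same pattern lies later in that stretch, in lower case. HSPA8 (chr11:123062149-123062221, minus strand) and DNAJB6 (chr7:157336843-157336915, plus strand) show a heat shock element, searched as alternating blocks of GAA and TTC, 3 in all and 2 bases apart. UTP20 (chr12:101280065-101280104, plus strand) and NAT10 (chr11:34105584-34105628, plus strand) show the E-box CACGTG, which MYC with MAX can bind. CTSD (chr11:1763937-1764004, minus strand) shows GTCACGTG, a longer form known from lysosomal genes, here read on the opposite strand.
EGR1: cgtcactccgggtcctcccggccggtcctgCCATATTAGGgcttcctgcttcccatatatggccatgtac
HSPA8: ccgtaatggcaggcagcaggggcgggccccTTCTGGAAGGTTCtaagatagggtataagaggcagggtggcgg
DNAJB6: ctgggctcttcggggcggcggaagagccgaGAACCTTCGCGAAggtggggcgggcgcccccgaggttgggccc
UTP20: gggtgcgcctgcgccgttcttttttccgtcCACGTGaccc
NAT10: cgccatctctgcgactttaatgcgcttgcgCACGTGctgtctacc
CTSD: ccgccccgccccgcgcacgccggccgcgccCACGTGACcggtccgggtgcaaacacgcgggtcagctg

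Whole promoters of 300 bases were searched on both strands. The heat shock element was in 4 of the 17 tested heat shock genes with a RefSeq promoter, against 0.49% of 27305 promoters. All 4 of those genes fell with treatment, as did 16 of the 19 in the whole list. CACGTG was in 12 of 35 ribosome biogenesis promoters and 7.43% of all promoters. Of the 12 genes 11 fell, beside 33 of 40 in the whole list. GTCACGTG, which contains CACGTG, was in 5 of 20 lysosomal and autophagy promoters and 2.53% of all. Of these genes 1, CTSD, rose, beside 14 of 30 in the whole list. The CArG box was in 2 of 20 immediate early promoters, those of EGR1 and SRF, and in 1.29% of all, and neither of the 2 genes passed as higher while 1 fell. TGACGTCA, the cyclic AMP response element, was in 3 of those 20 promoters and 1.98% of all. Of the 3 genes 2 rose, beside 17 of 27 in the immediate early list. Among promoters of tested genes the shares were 0.31%, 10.53%, 4.68%, 1.04% and 3.44% in the same order. A match says only that the letters are present.

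**Figure D2:**
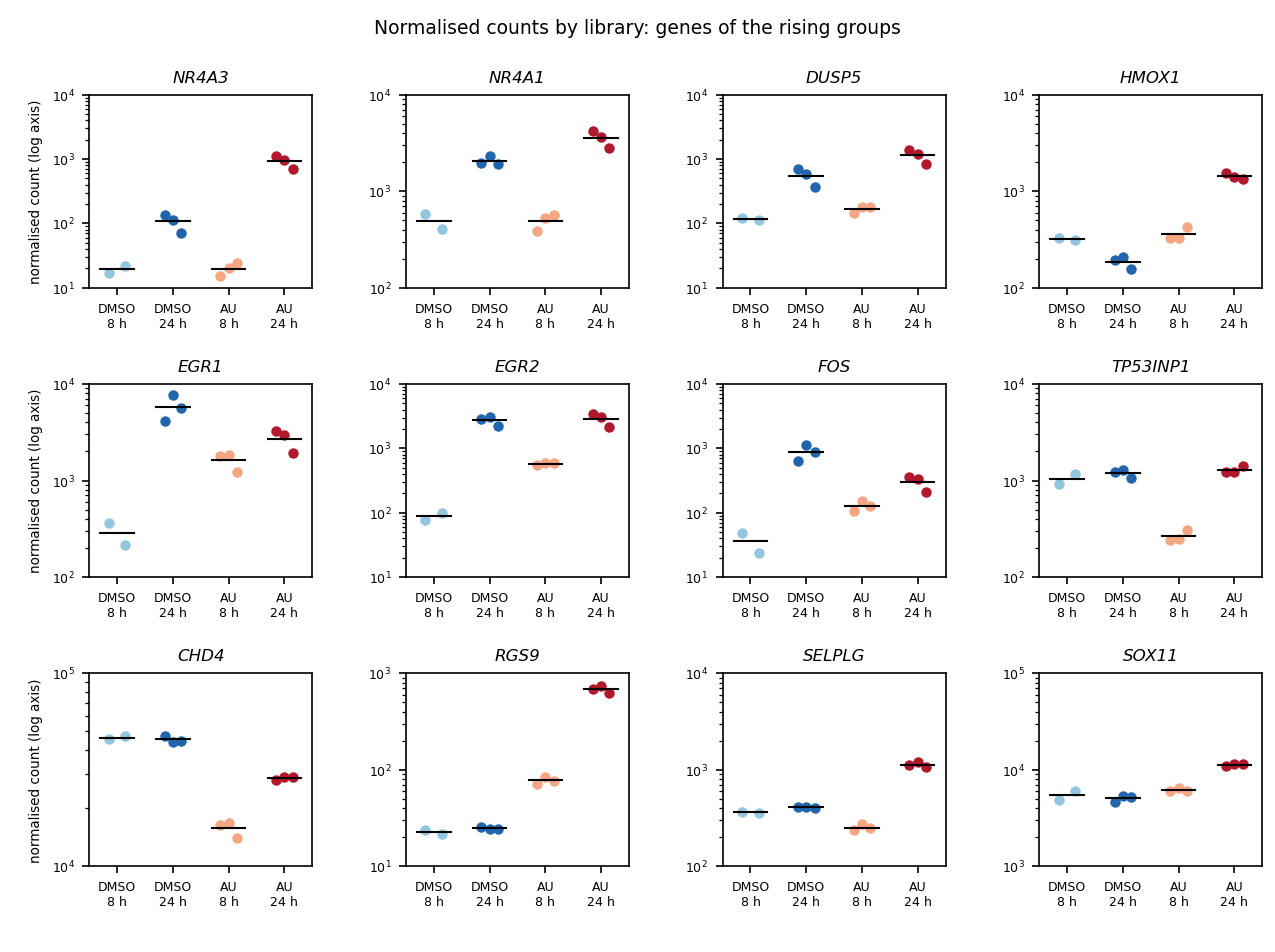
Normalised counts of 12 genes in each of the 11 libraries on log axes, with dots for libraries and a black line for the group mean. NR4A3, RGS9 and HMOX1 are high in AU-15330 at 24 h alone, EGR1, EGR2 and FOS are lowest in vehicle at 8 h, and TP53INP1 and CHD4 are lowest in AU-15330 at 8 h.

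Genes that restrain MAP kinase signalling rose with the NR4A family. Of 14 tested members, 12 rose and none fell with treatment, with a median change of 0.84, while 7 rose in vehicle with a median of 0.49 (18.3% and 6.56% of all genes rose). The difference was positive for 4, negative for 2 and not called for 8 (positive for 7.54% and negative for 11.0% of all genes). DUSP5, a phosphatase that inactivates ERK in the nucleus, had 143, 179 and 178 counts at 8 h and 1384, 1199 and 835 at 24 h, a rise of 2.38 ± 0.21. Its vehicle rise of 1.76 ± 0.23 was not distinguished from this (adjusted p = 0.097 for the difference), except without AU-15330 replicate 3 at 24 h. DUSP4, a related phosphatase, went from 14.8, 14.9 and 23.7 counts to 212, 226 and 152, a rise of 1.71 ± 0.13, and the vehicle libraries stayed between 2.92 and 22.2. PHLDA1, a further feedback gene of this pathway, had 37.5, 51.8 and 37.1 counts and then 214, 195 and 163. DUSP4 and PHLDA1 both differed from their vehicle change, by 1.43 ± 0.20 and 1.11 ± 0.17.

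NF-kappaB genes followed, with 15 of 24 higher and 3 lower at 24 h of treatment (median 0.36) and 10 higher in vehicle (median 0.20). Of all genes 18.3% rose and 21.1% fell with treatment, and 6.56% rose in vehicle. The difference from vehicle was positive for 6 and negative for 4 (7.54% and 11.0% of all genes), with a median of 0.01. RELB, the subunit of the non-canonical pathway, went from 5816, 5774 and 5603 counts to 10248, 10700 and 9856 (0.83 ± 0.04). BIRC3, an inhibitor of apoptosis that is a target of the pathway, went from 3271, 3538 and 4091 to 6440, 7392 and 6289 (0.88 ± 0.08). RELB and BIRC3 rose beyond their vehicle changes of 0.21 and 0.27, with adjusted p of 3.9e-05 and 0.0061 for the differences. TNFAIP3, the deubiquitinase A20 that shuts the pathway off, rose by 0.82 ± 0.07 and in vehicle by 0.98 ± 0.08. Among TNF receptor family genes and ligands 9 of 15 rose, and 1, TNFRSF18, fell by 1.17 ± 0.06 beside a fall of 0.83 ± 0.07 in vehicle. CCL3L1, a chemokine gene with near-identical copies whose counts are uncertain, held at most 17.4 counts in any treated library and rose by 2.43 ± 0.15 in vehicle.

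Most targets of p53 rose. Of 26 tested members, 16 rose and none fell, with a median of 0.42 (18.3% and 21.1% of all genes rose and fell). In vehicle 6 rose, with a median of 0.13 (6.56% of all genes). The difference was positive for 12 and negative for none (7.54% and 11.0% of all genes). TP53INP1, which promotes p53-dependent death and autophagy, went from 240, 250 and 305 counts to 1236, 1237 and 1401, a rise of 2.06 ± 0.11. Vehicle libraries held 926 to 1286 counts, so the 24 h treated level lay beside vehicle and the 8 h level far below it. CDKN1A, the cyclin-dependent kinase inhibitor p21, had 5375, 4995 and 4644 counts and then 10596, 10161 and 9203 (0.99 ± 0.06), again nearer to the vehicle range of 10377 to 13194. BTG2, an antiproliferative gene that assists RNA deadenylation, behaved otherwise. It went from 3998, 3833 and 3956 counts to 8300, 8434 and 7491 (1.03 ± 0.06), with 1663 to 1956 in vehicle, so it lay above vehicle at both times. In the treated libraries the median level of the whole list was lower at 8 h than in any vehicle library and overlapped the 24 h vehicle libraries at 24 h.

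Members of the BCL2 family, which decide on the permeability of the mitochondrial outer membrane, were higher in 7 of 13 cases and lower in 2, against 18.3% and 21.1% of all genes. In vehicle 3 rose and none fell (6.56% and 3.56% of all genes). The difference was positive for 5 and negative for none (7.54% and 11.0% of all genes). BMF, a BH3-only death gene, went from 542, 674 and 524 counts to 1423, 1421 and 1384 (1.21 ± 0.09), against a vehicle change of -0.27 ± 0.10 that did not pass. PMAIP1, the BH3-only gene known as NOXA, rose by 0.73 ± 0.06, and MCL1, its survival partner, by 0.41 ± 0.03. BCL2 itself went from 1747, 2171 and 1708 counts to 2681, 2857 and 2908 (0.58 ± 0.08). Its rise was not distinguished from the vehicle rise of 0.27 ± 0.09 (adjusted p = 0.22), except without AU-15330 replicate 2 at 8 h. Both death genes and survival genes of the family were thus among those that rose.

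HMOX1, heme oxygenase and a classical target of NRF2, rose in treated cells and fell in vehicle (ENSG00000100292.17, GRCh38 chr22:35380361-35394214, plus strand). Its counts were 328, 330 and 422 at 8 h and 1553, 1388 and 1335 at 24 h, a rise of 1.83 ± 0.11, while vehicle moved from 324 and 309 to 191, 208 and 157 (-0.62 ± 0.12). The difference of 2.45 ± 0.17 passed its test (adjusted p = 6.2e-06). The rest of the oxidative response moved less. FTL, the ferritin light chain, rose by 0.28 ± 0.03 and PGD, an enzyme of the pentose phosphate pathway that makes NADPH, by 0.26 ± 0.03. Of 22 tested members 8 rose and 3 fell, with a median of 0.01 (18.3% and 21.1% of all genes rose and fell). The difference was positive for 8 and negative for 1 (7.54% and 11.0% of all genes).

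Lysosomal and autophagy genes rose in 14 of 30 cases and fell in 2, with a median of 0.13 (18.3% and 21.1% of all genes). In vehicle none rose and 2 fell (6.56% and 3.56% of all genes). The difference was positive for 13 and negative for 2 (7.54% and 11.0% of all genes). CTSZ, a lysosomal protease, went from 328, 354 and 248 counts to 901, 876 and 673, and its change exceeded that of vehicle by 1.08 ± 0.20. GLA, the lysosomal alpha-galactosidase, went from 1197, 1185 and 1148 to 2042, 1848 and 1896 (0.68 ± 0.06). SQSTM1, the autophagy receptor p62, rose by 0.43 ± 0.05 and CTSD, an abundant aspartic protease of lysosomes, by 0.20 ± 0.07. The vehicle changes of CTSZ, GLA and SQSTM1 were 0.17, -0.12 and -0.14, and each differed from the treated change.

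Several genes of lipid traffic were higher as well. ABCG1, a cholesterol exporter under LXR control, had 468, 406 and 469 counts at 8 h and 1627, 1628 and 1668 at 24 h (1.75 ± 0.07), while vehicle stayed between 1152 and 1373. ABCA1, its partner in efflux, went from 497, 460 and 468 to 1349, 1299 and 1315 (1.37 ± 0.08), still below the vehicle range of 1945 to 3003. SREBF1, the regulator of fatty acid synthesis, rose by 0.84 ± 0.07, and SCD, the desaturase it controls, by 0.49 ± 0.03. Of 9 genes of efflux and LXR control 4 rose and none fell, with 3 higher in vehicle. Of 14 genes of fatty acid synthesis 6 rose and 2 fell, again with 3 higher in vehicle. Over all genes 18.3% rose and 21.1% fell with treatment, and 6.56% rose in vehicle. Cholesterol synthesis showed no common direction, with 5 of 24 higher and 6 lower.

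**Figure D3:**
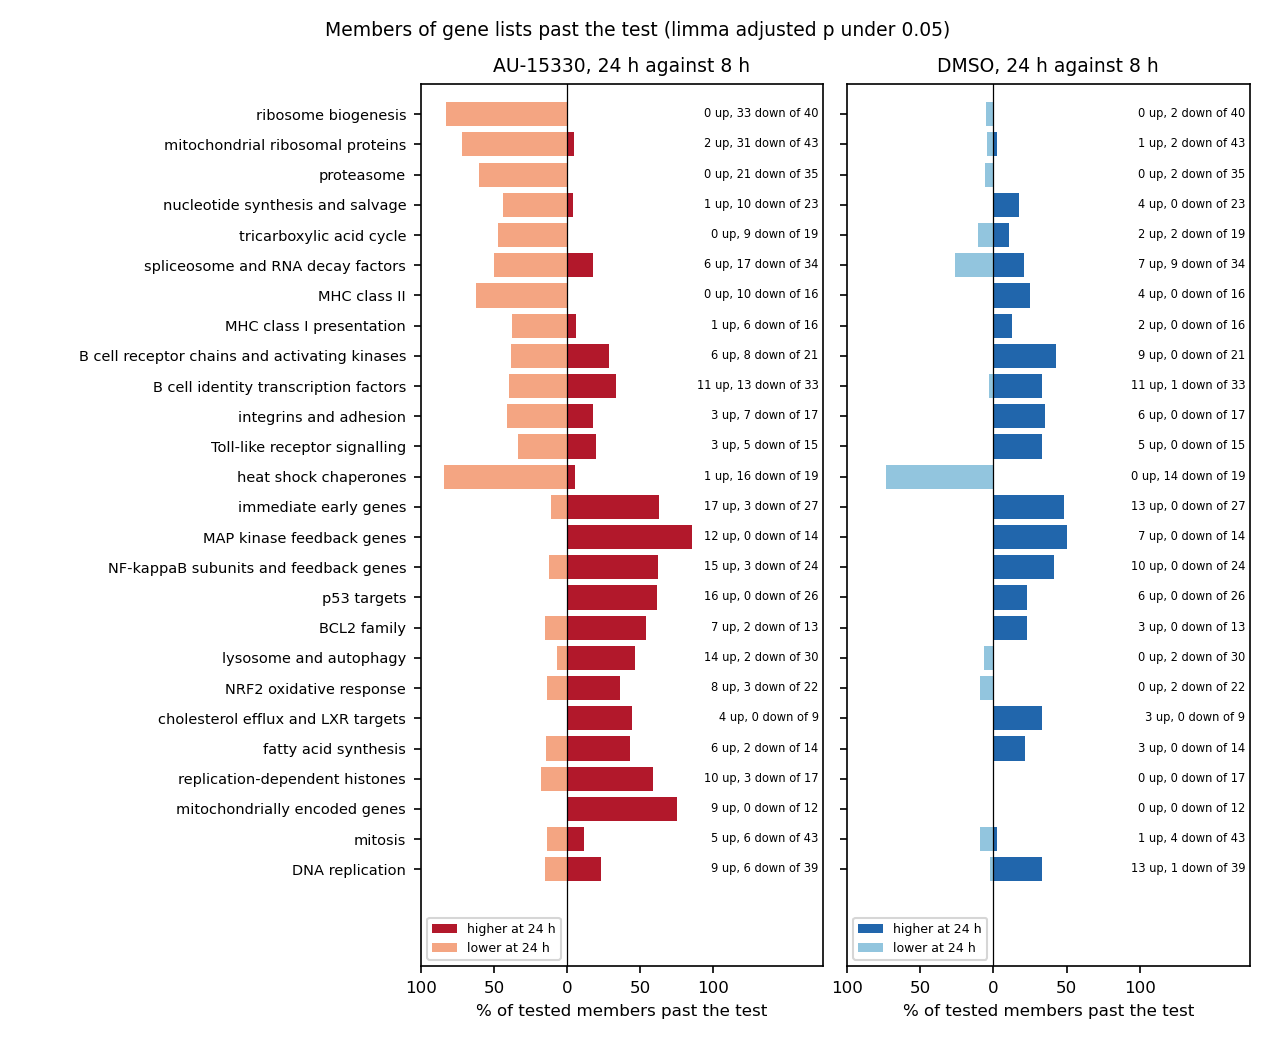
Share of the tested members of 26 gene lists that passed the test as higher (right of 0) or lower (left of 0) at 24 h, with the numbers of genes beside the bars. AU-15330 is in the left panel and DMSO in the right panel. Ribosome biogenesis has 33 of 40 members lower with treatment and 2 in vehicle, while heat shock chaperones are lower in both, 16 and 14 of 19.

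Several lists of the growth machinery fell from 8 h to 24 h of treatment. Of 40 tested genes of ribosome biogenesis, which make and process ribosomal RNA, 33 fell and none rose, with a median of -0.28. In vehicle 2 fell and the median was -0.01. Over all genes 21.1% fell with treatment and 3.56% in vehicle. The difference was negative for 27 of the 40 as deposited (11.0% of all genes) and for 16 after quantile normalisation. Against vehicle of the same time, the list's median log2 difference was 0.18 at 8 h and -0.04 at 24 h. The fall thus started from a level above vehicle. WDR3, a subunit of the early processing complex of the small ribosomal subunit, went from 14277, 13903 and 14065 counts to 9122, 9456 and 9888 (-0.57 ± 0.04). NOP2, a methyltransferase of ribosomal RNA, went from 10188, 9892 and 10545 to 7267, 7205 and 7112 (-0.50 ± 0.03), and UBTF, a transcription factor of RNA polymerase I, from 20080, 21251 and 20257 to 14628, 14931 and 14964 (-0.47 ± 0.03). In WDR3, NOP2 and UBTF the 8 h treated libraries were above all vehicle libraries and the 24 h ones below nearly all of them. UTP20, another processing factor, and NAT10, an RNA acetyltransferase, fell by 0.40 ± 0.05 and 0.39 ± 0.05.

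MYC, a driver of this programme, went from 65007, 63697 and 63538 counts to 49338, 48760 and 47791, a fall of 0.40 ± 0.02 (adjusted p = 5.8e-07). Vehicle rose by 0.14 ± 0.03, from 50092 and 50179 counts to between 55191 and 55640. MAX, its binding partner, went from 3029, 3451 and 3644 counts to 2309, 2301 and 2368 (-0.52 ± 0.07) with no call in vehicle. Among 43 mitochondrial ribosomal protein genes 31 fell and 2 rose (median -0.18), and of 35 proteasome genes 21 fell and none rose (median -0.18). The difference from vehicle was negative for 10 and 8 of these (11.0% of all genes). After quantile normalisation it was negative for 3 and 5, and for 968 of all 12721 genes. Of all genes 21.1% fell and 18.3% rose with treatment. Against vehicle of the same time, the mitochondrial list had a median of 0.14 at 8 h and -0.02 at 24 h. The proteasome list had 0.17 and 0.06. PSME1 and PSME2, the interferon-inducible activator of the proteasome, had the smallest p of the proteasome genes at -1.07 ± 0.05 and -0.80 ± 0.04, although each shares its symbol with other entries and is uncertain. Cytosolic ribosomal protein genes did not take part. Of 55, 15 rose and none fell, with a median of 0.06, and in this list RPL12, of the large subunit, rose by 0.28 ± 0.03.

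EIF4A3, the RNA helicase at the heart of the exon junction complex, showed one of the clearest falls among abundant genes. It had 85878, 90791 and 90145 counts at 8 h and 40198, 40011 and 43117 at 24 h (-1.11 ± 0.04, adjusted p = 1.5e-08). Vehicle libraries held between 35024 and 37251 throughout, so the high value was that of 8 h of treatment. SRSF1, a splicing factor that also binds exons, fell by 0.59 ± 0.03 and by 0.27 ± 0.03 in vehicle. Of 34 spliceosome and RNA decay factors 17 fell and 6 rose with treatment, and 9 fell and 7 rose in vehicle. The shares of all genes that fell and rose were 21.1% and 18.3% with treatment and 3.56% and 6.56% in vehicle. Genes of glycolysis and hypoxia and those of oxidative phosphorylation had no common direction. Of 35 genes of glycolysis and hypoxia 12 rose and 7 fell, and of 54 genes of oxidative phosphorylation 5 rose and 14 fell, but 12 rose and 8 fell after quantile normalisation. In the tricarboxylic acid cycle 9 of 19 genes fell and none rose, and OGDH, a dehydrogenase of the cycle, went from 13837, 14664 and 13440 counts to 8668, 8813 and 9131 (-0.65 ± 0.05). HK2, the hexokinase that starts glycolysis, fell by 0.52 ± 0.03 and rose in vehicle by 0.19 ± 0.04. S100A4, a calcium-binding gene of cell motility, went from 3898, 3800 and 4050 counts to 1255, 1318 and 1291 (-1.56 ± 0.04), with vehicle between 5127 and 5661.

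Heat shock chaperones fell in treated and in vehicle cells. Of 19 tested members 16 fell and 1 rose with treatment (median -0.37), and 14 fell and none rose in vehicle (median -0.27). Over all genes 21.1% fell and 18.3% rose with treatment, and 3.56% fell and 6.56% rose in vehicle. The difference was negative for 6 of the 19 and positive for 2 (11.0% and 7.54% of all genes). HSPA8, the constitutive HSP70, went from 257215, 250149 and 263335 counts to 116539, 128553 and 127682 (-1.05 ± 0.05), and in vehicle by -0.59 ± 0.05. DNAJB1, its co-chaperone, went from 11294, 11056 and 10878 to 4912, 5384 and 5271 (-1.09 ± 0.05), and in vehicle by -0.86 ± 0.06. The difference passed for HSPA8 (adjusted p = 0.0011) and did not for DNAJB1 (adjusted p = 0.063), except without DMSO replicate 2 at 24 h. CHORDC1, a partner of HSP90, fell by 0.87 ± 0.04 and in vehicle by 0.68 ± 0.05, and the difference passed (adjusted p = 0.024). DNAJB6, which keeps proteins from aggregating, fell by 0.62 ± 0.04 with treatment. A fall of most genes in this list was therefore also present without the degrader, where time and batch changed as well. Of 23 genes of the endoplasmic reticulum's chaperones and unfolded protein response 9 rose and 3 fell, and 13 rose and none fell in vehicle. HSPA5, the chief chaperone there, went from 15408, 15513 and 16048 counts to 25555, 25949 and 25368 (0.71 ± 0.03), beside 0.53 ± 0.03 in vehicle.

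**Figure D4:**
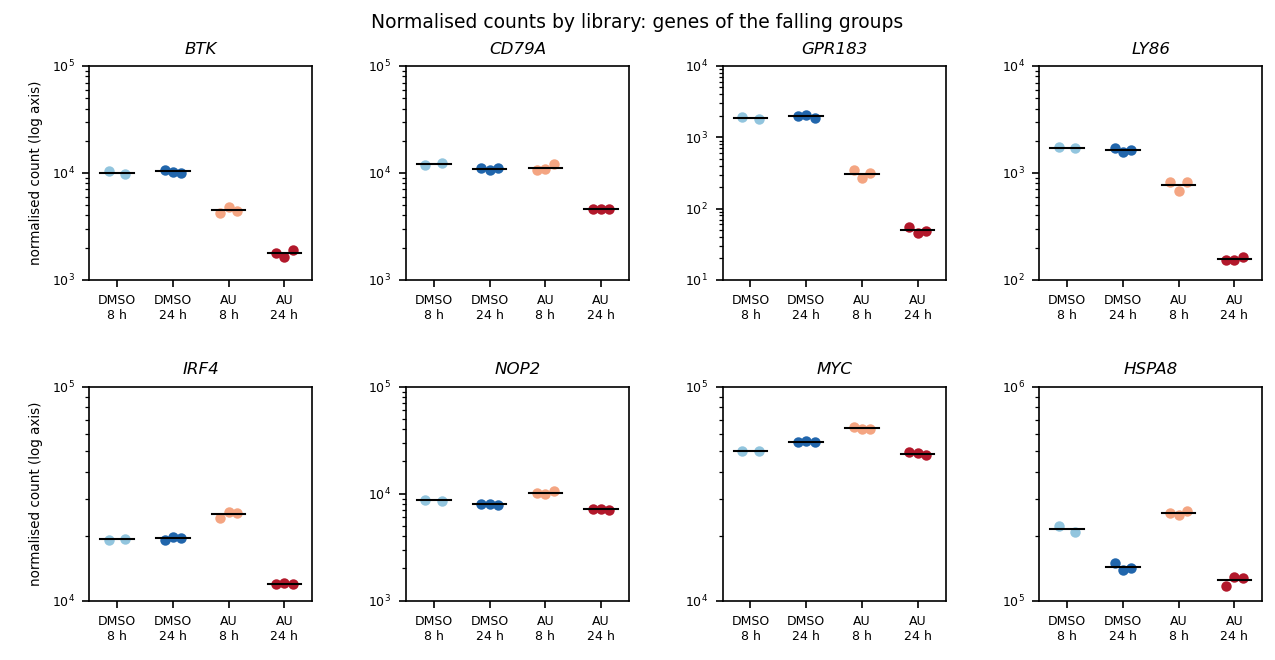
Normalised counts of 8 genes in each of the 11 libraries on log axes, with dots for libraries and a black line for the group mean. BTK, GPR183 and LY86 step down from vehicle to 8 h and again to 24 h of AU-15330, CD79A falls at 24 h alone, IRF4, NOP2 and MYC are highest in AU-15330 at 8 h, and HSPA8 is lower at 24 h in both series.

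Several central genes of B cell signalling fell further after 8 h, while others of the group rose. CD79A, the signalling chain of the B cell receptor (ENSG00000105369.10, GRCh38 chr19:41877120-41881372, plus strand), had 10579, 10956 and 12148 counts at 8 h and 4586, 4553 and 4638 at 24 h (-1.28 ± 0.05). The 8 h libraries overlapped the vehicle range of 10640 to 12340, and the 24 h libraries were all far below it. BTK, the kinase that mantle cell lymphoma drugs inhibit, went from 4249, 4841 and 4388 to 1794, 1641 and 1907 (-1.31 ± 0.06), with vehicle between 9694 and 10758. PIK3CD, the lymphocyte isoform of PI 3-kinase, went from 8391, 9088 and 8802 to 5632, 5602 and 6090 (-0.60 ± 0.05), and rose in vehicle by 0.28 ± 0.05. Of 21 chains and kinases 8 fell and 6 rose with treatment, with a median of -0.08 (21.1% and 18.3% of all genes). In vehicle 9 rose (6.56% of all genes). The difference was negative for 8 and positive for none (11.0% and 7.54% of all genes). VPREB3, a surrogate light chain relative, went from 198, 225 and 208 counts to 32.2, 45.3 and 37.7, and MS4A1, the CD20 antigen, from 13810, 12883 and 14287 to 10468, 10796 and 10968. MS4A1 fell by 0.34 ± 0.04 and rose in vehicle by 0.54 ± 0.04. CD81, a tetraspanin of the B cell surface, fell by 1.08 ± 0.04 with no change called in vehicle. Of the 10 B cell markers 6 fell and 2 rose, and the difference was negative for 8 (11.0% of all genes).

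B cell transcription factors split. IRF4, needed for plasma cells and active in lymphoma, had 24228, 26038 and 25767 counts at 8 h and 11933, 12043 and 11930 at 24 h (-1.08 ± 0.03), with vehicle between 19142 and 19884. It crossed from above to below vehicle. POU2AF1, the coactivator of octamer factors, went from 4881, 5620 and 5618 to 2681, 2670 and 2554 (-1.01 ± 0.05). KLF2, a quiescence and migration factor chosen after its values were seen, went from 3428, 3813 and 4666 to 1359, 1528 and 1770 (-1.32 ± 0.13). PAX5, the guardian of B cell identity, rose instead, from 2234, 2857 and 2504 counts to 6213, 7302 and 7395 (1.44 ± 0.10). Vehicle also rose, by 1.00 ± 0.11, and the difference did not pass (adjusted p = 0.32), although it did on log2(CPM + 1) and log2(CPM + 5). IKZF1, the Ikaros factor, rose by 0.46 ± 0.03 and by 0.30 ± 0.04 in vehicle. In the whole list of 33 factors 11 rose and 13 fell with treatment (18.3% and 21.1% of all genes). In vehicle 11 rose and 1 fell (6.56% and 3.56% of all genes). The difference was negative for 13 and positive for 4 (11.0% and 7.54% of all genes).

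Antigen presentation fell. Of 16 tested MHC class II genes 10 fell and none rose, with a median of -0.25. In vehicle 4 rose, and the difference was negative for 10. Over all genes 21.1% fell and 18.3% rose with treatment, 6.56% rose in vehicle, and the difference was negative for 11.0%. CD74, the invariant chain, went from 147517, 159387 and 166948 counts to 106949, 114395 and 120314 (-0.47 ± 0.05). IFI30, a lysosomal reductase for antigens, went from 5432, 5845 and 6297 to 3757, 4003 and 3694 (-0.61 ± 0.05). For class I, 6 of 16 fell and 1 rose. B2M, the light chain of class I, went from 40724, 39656 and 42128 to 29546, 30411 and 32954 (-0.40 ± 0.04), and PSMB10, an immunoproteasome subunit, from 2914, 2770 and 2807 to 1689, 1660 and 1762 (-0.71 ± 0.05). Of the tested genes, 8 of class II and 10 of class I have several entries under their symbol and are uncertain.

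Receptors and adhesion genes changed in both directions. GPR183, the oxysterol receptor that places B cells in follicles, had 343, 268 and 313 counts at 8 h and 54.7, 45.5 and 49.0 at 24 h (-1.74 ± 0.09), far below vehicle at 1826 to 2075. SELPLG, the ligand of P-selectin, went from 235, 275 and 247 to 1130, 1198 and 1079 (1.94 ± 0.08), with vehicle between 360 and 416. It stood below vehicle at 8 h and above it at 24 h. CXCR4, the chemokine receptor that retains B cells in marrow and nodes, fell from 29990, 28526 and 29635 to 21198, 20852 and 21012 (-0.48 ± 0.03). ITGA4, the alpha chain of the VLA-4 integrin, rose by 0.82 ± 0.06 and ITGB7, a beta chain it can pair with, fell by 1.15 ± 0.19. Plexins and semaphorins rose in 6 of 11 cases and fell in 1 (18.3% and 21.1% of all genes), and none passed in vehicle. The difference itself was positive for 3 of the 11 and negative for none (7.54% and 11.0% of all genes). In this list PLXNB2, a semaphorin receptor, went from 2595, 2858 and 2418 counts to 6577, 6928 and 5987 (1.29 ± 0.07). That is close to its vehicle range of 6682 to 7120.

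**Figure D5:**
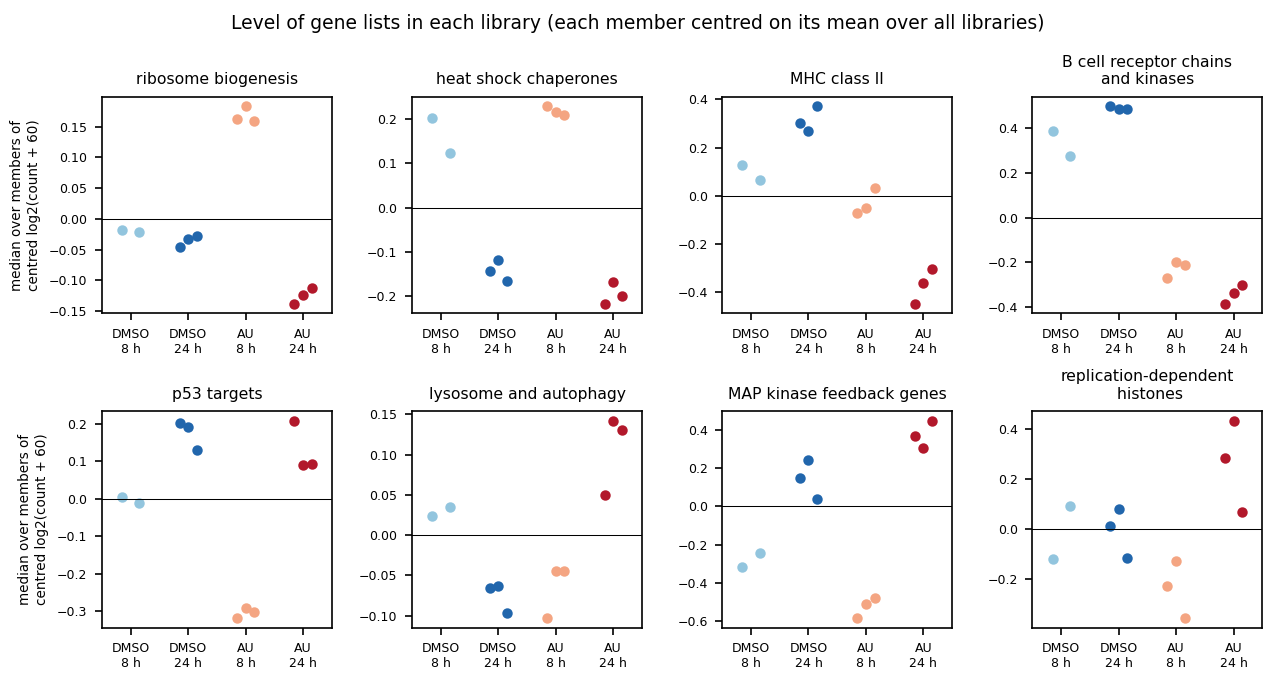
Median over the tested members of 8 gene lists in each library, after each gene's log2(normalised count + 60) was centred on its mean over the 11 libraries. Ribosome biogenesis is highest in AU-15330 at 8 h and lowest at 24 h, p53 targets are lowest in AU-15330 at 8 h, and heat shock chaperones separate the times in both treatments.

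The targets of the degrader and other remodellers showed smaller changes of RNA, which do not measure protein loss. SMARCA2 went from 3798, 3782 and 3642 counts to 2952, 2864 and 2398 (-0.45 ± 0.07), and its difference from vehicle passed as deposited (adjusted p = 0.031). That call was lost after quantile normalisation (0.0864), on log2(CPM + 1) (0.067) and without either vehicle library at 8 h (0.105 and 0.06), among others. SMARCA4 fell by 0.20 ± 0.05 and PBRM1 by 0.18 ± 0.05 (not called without AU-15330 replicate 1 at 24 h, adjusted p = 0.0561), and neither differed from vehicle by the test (adjusted p = 0.28 and 0.16). Of 24 BAF and PBAF subunits 9 fell and none rose, but 5 fell and 1 rose after quantile normalisation, and 21.1% of all genes fell. The largest fall in that list was that of DPF1, a subunit of neuronal BAF, from 644, 660 and 543 to 207, 235 and 173 (-1.35 ± 0.14), with vehicle between 159 and 258. CHD4, the ATPase of the NuRD complex, went from 16419, 16672 and 14059 counts to 27949, 29019 and 28949 (0.87 ± 0.06), and vehicle stayed between 44180 and 47609. CBX2, a Polycomb subunit, rose by 0.40 ± 0.03 and fell in vehicle by 0.15 ± 0.04. CHD4 and CBX2 were thus lowest at 8 h of treatment and came nearer to vehicle at 24 h.

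Genes tied to mantle cell lymphoma and SOX11 moved in both directions. Of 17 tested, 12 rose and 5 fell, CXCR4 among the latter (18.3% and 21.1% of all genes rose and fell). The difference from vehicle was positive for 6 and negative for 4 (7.54% and 11.0% of all genes). SOX11, the transcription factor that marks the disease, went from 6046, 6542 and 5984 counts to 10879, 11510 and 11539 (0.86 ± 0.08), with vehicle between 4640 and 6046 (difference 0.96 ± 0.12, adjusted p = 0.00024). CCND1, the cyclin D1 that the t(11;14) translocation activates, rose by 0.13 ± 0.03. That was not distinguished from the vehicle change of 0.10 ± 0.03 (adjusted p = 0.69), except after quantile normalisation. DBN1, an actin-binding gene of the SOX11 list, rose by 0.74 ± 0.05. SASH3, a lymphocyte adaptor, had 160, 173 and 195 counts and then 75.0, 73.9 and 79.0 (-0.79 ± 0.08), and rose by 0.51 ± 0.08 in vehicle. CRYM, a thyroid hormone binding protein, had 1909, 1628 and 1503 counts and then 2255, 2445 and 1992 (0.40 ± 0.10), and fell in vehicle from 104 and 106 to between 23.6 and 30.8.

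Cell cycle genes had no common direction, and few mitotic genes passed the test. Of 43 mitotic genes 5 rose and 6 fell, with a median of 0.02, and CDC20, an activator of the anaphase ligase, fell by 0.35 ± 0.04 beside 0.29 ± 0.04 in vehicle. Of 39 genes of DNA replication 9 rose and 6 fell, shares near the 18.3% and 21.1% of all genes, and after quantile normalisation 19 rose and 4 fell. Of 24 genes of the switch from G1 to S 9 rose and 5 fell. CDKN1B, the inhibitor p27, went from 5790, 5739 and 5672 counts to 7989, 8971 and 8988 (0.59 ± 0.05). Replication-dependent histone genes rose in 10 of 17 cases and fell in 3, with a median of 0.57, and none passed in vehicle. The difference itself was positive for 4 of the 17 and negative for none (7.54% and 11.0% of all genes). H2AC6, one of them, went from 142, 165 and 111 counts to 415, 559 and 384. Most histone messages lack a poly(A) tail, so the library kit bears on their counts, and the labels name a TruSeq RNA kit, which selects poly(A) RNA, and a ribosomal depletion kit without tying either to a library. Mitochondrially encoded genes rose in 9 of 12 cases, with a median of 0.47. Their summed counts were 418827, 632171 and 463380 at 8 h of treatment and 703184, 709811 and 603559 at 24 h, so the times overlapped. None passed in vehicle, where the median was 0.30, and none passed the test of the difference. MT-ND4, a subunit of complex I, had 54117, 83375 and 62356 counts at 8 h and 107436, 109452 and 84314 at 24 h. The share of such transcripts can follow RNA handling, and its part in the other results was not tested.

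The remaining largest changes fell outside these groups. RGS9, a brake on G protein signalling best known from photoreceptors, went from 71.8, 85.0 and 76.4 counts to 697, 742 and 632 (2.44 ± 0.09), with vehicle at 21.6 to 25.4. TMEM54, a little studied membrane protein gene, rose by 1.84 ± 0.10 and CD28, a T cell costimulator also found on plasma cells, by 1.82 ± 0.20, to 492, 471 and 510 counts. ALDOC, an aldolase of glycolysis, rose by 1.96 ± 0.26 with uneven libraries at 24 h of 1823, 1711 and 846. Among the falls, KIF19, a kinesin of cilia, had 332, 363 and 251 counts and then 25, 41.5 and 21 (-2.07 ± 0.13). LY86, the MD-1 partner of the Toll-like receptor relative CD180, had 820, 678 and 828 and then 152, 152 and 163 (-1.95 ± 0.08). SIPA1L3, a regulator of Rap GTPases, went from 6407, 6931 and 6670 to 2108, 1985 and 1863 (-1.72 ± 0.09), with vehicle between 2241 and 3029, so its 8 h level was the high one. PDIA2, ADORA1, WDFY4, SEPTIN1, SH3TC1, MYO1G and MYBPH were also among the 12 largest falls, at between -1.96 and -1.69. For each of the 12 largest rises and falls the treated 8 h and 24 h libraries did not overlap, which the rule that chose them required.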

How the data were processed

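RNA of Z138 cells was sequenced on a NextSeq2000 with reads of 50 bp, per the labels' protocols. Tools in the submitters' processing notes are kallisto 0.46.1 (transcript quantification), DESeq2 1.24.0, Trimmomatic 0.40 and FastQC 0.11.9, with the build GRCh38.p13 and no settings. The authors deposited 1 table of log2 values with 20318 gene entries. The values, with a floor of 10.36053 in every library, fit DESeq2's variance-stabilising transform and not log CPM, and that transform was inverted to normalised counts. Between 53.86% and 56.35% of low values were whole reads (within 0.02), so no count test was run. The pair of columns with 1 name was identical, and 1 was dropped. Which of DMSO replicates 2 and 3 at 8 h it holds is not settled, and 11 libraries were used where 12 had been planned.

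Genes were tested where 3 or more libraries reached 1 CPM, which left 12721 (62.6%). They were fitted on the deposited scale with limma 3.58.1 in R 4.3.3, with 1 mean per group, a trended prior, 7 residual degrees of freedom and a two-sided test at an adjusted p of 0.05. Folds come from the same model on log2(normalised count + 60). Symbols are the table's, and 91.41% of entries matched GENCODE 29 on GRCh38 for positions. Alternatives were other scalings, filters, priors and fits, the replicate block, and each library left out. The 59 gene lists and the comparison were chosen with earlier results of these data known. Named genes are the 12 largest changes in each direction with at least 5 CPM in the higher group and no overlap, 11 fixed genes, the 3 members of each list with the smallest p, and the 6 largest differences in each direction. A gene that the rule names is not reported here. No label says whether counting used strand, so genes that overlap or have several entries are uncertain. Figures were made with Matplotlib 3.10.9. The fit was tested on simulated data.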

Additional observations from a re-analysis of the deposited data

Results flagged for a closer look

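The time change was tested against that of vehicle cells, and 2358 genes differed (limma, adjusted p under 0.05, 1571 without DMSO replicate 2 at 8 h). Each value here is the treated change minus the vehicle change, on log2(normalised count + 60). Time and batch are shared by both changes. The genes named by size or always named that differed with a more positive change in treated cells were NR4A3 2.56, HMOX1 2.45, RGS9 2.41, TP53INP1 1.87, PCBP4 1.84, SELPLG 1.78, ALDOC 1.76, NR4A2 1.69, TMEM54 1.68, CD28 1.65, CRYM 1.31, SOX11 0.96 and NR4A1 0.73. With a more negative change they were EGR1 -3.35, EGR3 -3.0, FOS -2.34, CCL3L1 -2.27, MYO1G -2.26, MYBPH -2.22, SEPTIN1 -2.06, EGR2 -2.05, LY86 -1.88, SH3TC1 -1.83, GPR183 -1.82 and WDFY4 -1.80. Further ones reported were KIF19 -1.77, PDIA2 -1.67, SIPA1L3 -1.64, ADORA1 -1.53, SASH3 -1.31, MYC -0.54, CXCR4 -0.48 and SMARCA2 -0.39. The calls of SMARCA2 and NR4A1 were each lost under 8 of the 20 alternatives tried, that of EGR2 without either vehicle library at 8 h, and that of ALDOC with the replicate block (adjusted p = 0.0511). The other genes named here stayed past the threshold in each alternative that tested them (19 for CCL3L1, NR4A2 and PCBP4).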

How the results depend on the processing

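The 5009 treated calls became 4199 to 4719 when 1 treated library was left out, and 4593 to 5016 under the other scalings, filters, priors and the fit to the treated libraries alone. The vehicle calls, 1287 as reported, fell to between 661 and 893 without 1 library (661 without DMSO replicate 2 at 8 h, 688 without DMSO replicate 1 at 8 h, 851 without DMSO replicate 1 at 24 h), where the lone 8 h library is assumed to vary like the other groups. The calls for the difference, 2358 as reported, ranged from 1571 (without DMSO replicate 2 at 8 h) to 2414. With the replicate number as a block there were 4479 treated calls, 459 vehicle calls and 1449 calls for the difference. The numbers do not pair the libraries by the labels: same-numbered treated libraries correlated at 0.071, 0.076 and 0.088 after group means were removed, and each library correlated best with its own number, a hint from the data only. Splits on quantile-normalised values were 52.63% rises for vehicle and 51.55% for the difference. Fitting only the groups of the difference gives the model already used. Of the 184 named genes, 179 passed as reported and 171 to 181 under the alternatives, and none reversed. Estimated depth was 50745720 to 67557796 counts a library.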
